A study of Macaca fascicularis with 34 samples.

Results

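Germ cells of the fetal male gonad were compared with germ cells of the early embryo, 5 single cells of embryonic day (E) 36 with 10 of E16, which makes 15 of the 34 cells of the series. All cells came from cynomolgus monkeys (Macaca fascicularis). The E36 cells were taken from gonads labelled male, and the E16 cells from embryos whose sex the labels do not state. The labels give no genotype, treatment or cell type for either stage. RNA of each cell was amplified and read at the 3' ends of transcripts (SC3-seq on a SOLiD sequencer), and a level is given in RPM, reads of a gene scaled to a fixed total of reads per cell. No animal is named, so the number of embryos behind a stage is not known and each stage stands as 1 sample. The values below are therefore descriptions: the standard deviation (SD) gives the spread between cells, a difference is the E36 mean less the E16 mean on the log2(RPM + 1) scale, and none was tested. A difference of at least 1 on this scale is called 2-fold, which can understate the change of genes with low levels. Where cells of a stage differ widely, it can also exceed the log2 ratio of mean RPM (2.26 against 0.36 for the gene OOEP).

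Primordial germ cells are the embryonic precursors of eggs and sperm. They are set aside around gastrulation under transcription factors that include SOX17, TFAP2C and PRDM1, keep parts of the pluripotency network such as POU5F1 and NANOG, migrate to the forming gonads, erase most DNA methylation, and there switch on genes such as DAZL and DDX4, whose products bind RNA and act in the later germ line. Fetal male germ cells afterwards leave the mitotic cycle, while meiosis in males starts only after birth.

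The members were chosen by their values of 2 genes. An E36 cell was kept if WT1, a transcription factor of the somatic cells around gonadal germ cells, lay below 50 RPM. An E16 cell was kept if APOA1, an apolipoprotein made by endoderm, lay below 100 RPM. E36 cell 5 was left out at 141 RPM of WT1, whereas the 5 kept cells (1, 2, 3, 4 and 6, numbered by accession) had 0 reads. E16 cell 8 was left out at 1430 RPM of APOA1, and the 10 kept cells held between 0 and 0.835 RPM. WT1 and APOA1 are not results here.

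The kept cells held 809116 to 2597490 reads at E36 and 1933058 to 3556592 at E16. Between 5233 and 5767 genes reached 15 RPM in an E36 cell and between 6171 and 6951 in an E16 cell, so the stages did not overlap in this count. A count of 0 allows up to 3 reads, which is 1.15 to 3.71 RPM in a single E36 cell and 0.844 to 1.55 RPM in a single E16 cell, for counting error only. The sample titles carry code MS09 for every E16 cell and MS11 for every E36 cell, so stage and code cannot be told apart between them. Code MS11 is shared by 2 E17 embryo cells, and differences from those cells are given where they end a 2-fold difference or turn its direction.

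Germ cell identity was checked on DAZL, DDX4, POU5F1 and SOX17. DAZL, an RNA-binding protein of germ cells (chromosome 2), was read at 161, 40.6, 2.45, 50.8 and 293 RPM in E36 cells 1, 2, 3, 4 and 6 and had 0 reads in every E16 cell. E36 cell 3 was the low cell, and the stages did not overlap. Summed over cells, 807 DAZL reads at E36 gave 92.2 RPM (exact Poisson 95% interval 85.9 to 98.8, counting error only), which is at least 765-fold above the limit of 3 summed reads at E16. Old World monkeys carry DAZL relatives on the Y chromosome, and the table lists no Y gene. Whether reads of such copies were counted under DAZL was not tested.

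DDX4, an RNA helicase of the germ line (chromosome 6), was read at 87.5, 62.8, 0, 114 and 90.2 RPM in the E36 cells in the same order. At E16 its lowest, median and highest levels were 0, 0 and 8.35 RPM, the highest in cell 5. Cell 3 again set the E36 cells apart from each other, since it had no DDX4 read while the other 4 lay above every E16 cell. The difference was 4.70, from a mean of 70.9 ± 43.6 RPM (SD, n = 5 cells) at E36 and 0.948 ± 2.61 RPM (SD, n = 10 cells) at E16. E36 cell 3 kept other genes of the germ line: SOX17 at 188 RPM, NANOS3 at 74.4 RPM and POU5F1 at 1929 RPM.

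POU5F1, the pluripotency factor OCT4, was present in all 15 cells and lower at E36. It was read at 1575, 1536, 1929, 1931 and 1477 RPM in the E36 cells, and between 2444 and 5473 RPM (median 4264) in the E16 cells. Every E36 cell lay below every E16 cell. The mean was 1690 ± 222 RPM at E36 (SD, n = 5) and 4157 ± 1094 RPM at E16 (SD, n = 10), 2.46-fold lower at E36, with a difference of -1.26. Against the E17 cells with code MS11 it was -0.97. SOX17, the factor that sets primate germ cell fate, ran from 188 to 559 RPM at E36 and from 362 to 1610 RPM at E16, and the stages overlapped (difference -0.89). All 4 marker genes were thus read in 4 of the 5 E36 cells, while the E16 cells all held POU5F1 and SOX17 and no DAZL read.

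**Figure D1:**
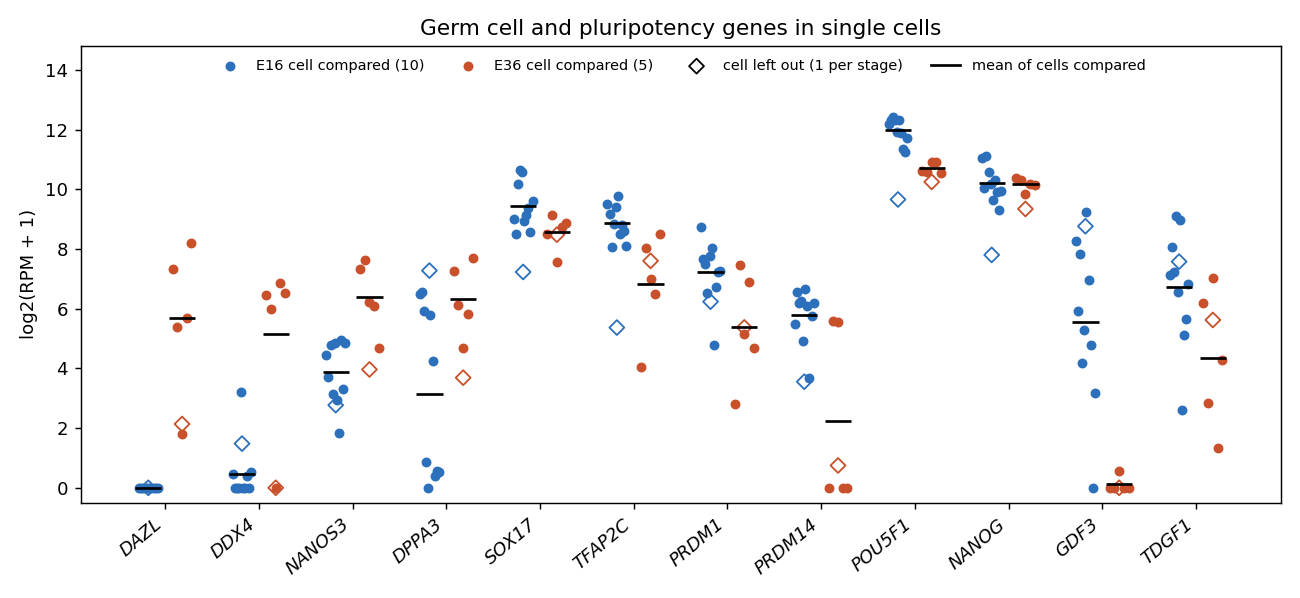
Level of 12 germ cell and pluripotency genes in each cell as log2(RPM + 1). Blue points are the 10 E16 cells and red points the 5 E36 cells compared, black bars are means, and open diamonds are the left-out E16 cell 8 and E36 cell 5. DAZL lies at 0 in every E16 cell, POU5F1 is lower in every E36 cell, and GDF3 is at or near 0 at E36.

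The other cell types that these tissues could hold were read through marker lists. Among 18 gonadal somatic genes in the table, AMH, INHA, DHH and CYP11A1 had 0 reads in all 5 E36 cells. WT1, by which the E36 cells were kept, is in the list and adds 0 to the sums of all 15 kept cells. The summed level of the list was 480, 43.1, 283, 198 and 190 RPM in the E36 cells against 27.4 to 241 RPM at E16, with GATA4 as the most highly read member in both. Of 11 measured members, 3 were at least 2-fold higher (SOX9, LHX9 and NR2F2) and 1 lower, beside 8.88% and 32.2% of all genes. SOX9, which drives Sertoli cell fate, was read at 74.2, 11.1, 0, 84.3 and 48.2 RPM (difference 2.61). E36 cell 1 held 57.4 RPM of LHX9 and 83.5 RPM of NR2F2, 2 factors of the gonadal ridge and interstitium. Without that cell the difference of NR2F2 went from 1.4 to 0.20 and that of LHX9 from 2.06 to 1.15. LHX9 stood at 1.32 without cell 3 and 0.97 with a pseudocount of 10, NR2F2 at 0.67 with that pseudocount, and both genes at 0 as a difference of medians over cells. The part of these levels in other differences was not tested.

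Amnion markers summed to 7.22 to 295 RPM at E36 and 98.7 to 263 RPM at E16 (1 of 13 measured members at least 2-fold higher, 5 lower). Of 16 amnion markers, ISL1, KRT7, VTCN1, GABRP and WNT6 had 0 reads in the E36 cells, and the others made up the sum. Of 15 endoderm markers, 2 had 0 reads at E16 and 8 had 0 reads at E36, among the latter APOA2, APOB, TTR, AFP, SERPINA1, RBP4 and FGB. The others made up sums of 28.3 to 259.6 RPM at E36 and 61.4 to 244 RPM at E16 (1 of 9 higher, 2 lower). APOA1, by which the E16 cells were kept, is in this list. It had 0 reads in the kept E36 cells and at most 0.835 RPM in a kept E16 cell. E16 cell 8, left out for APOA1, had a sum of 6467 RPM, so the E16 sums are no separate check of the choice. Blood and endothelium markers summed to 62.1 to 279 RPM at E36, in part above the 21.7 to 181 RPM at E16 (1 of 6 higher, 3 lower). Of 14 such markers in the table, 6 had 0 reads at E16 and 10 at E36, among the latter PTPRC, CD34, CDH5, HBA1 and HBB. The markers that were read made up the sums, so blood and endothelial transcripts were not absent. Markers of gastrulation and mesoderm summed to 1.92 to 81.9 RPM and 12.4 to 184 RPM (1 of 11 higher, 2 lower), and trophoblast markers to 0.385 to 18.5 RPM and 2.11 to 75.5 RPM (0 of 3 higher, 1 lower). These counts stand beside 8.88% of all genes at least 2-fold higher and 32.2% lower.

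Over the transcriptome, lower levels at E36 were more frequent than higher ones. Of 13828 genes whose mean reached 1 RPM in a stage, 1228 (8.88%) were at least 2-fold higher at E36 and 4448 (32.2%) at least 2-fold lower (41% in either direction), and the median gene differed by -0.51. The balance moved with the scale: with a pseudocount of 10 in place of 1, 457 genes were higher and 1614 lower, and the median gene differed by -0.19. With every cell thinned to 809116 reads, 1302 genes were higher and 4418 lower. Gene lists are therefore read against all genes, of which 8.88% were higher and 32.2% lower. In 125 genes (0.904%) every E36 cell lay above every E16 cell, and in 101 genes (0.73%) every E36 cell lay below. Leaving out E36 cell 1, 2, 3, 4 or 6 gave 169, 185, 182, 158 or 164 genes for the second count. Fewer cells make non-overlap easier to meet, so this count rises whichever cell is left out and singles out none. Pearson's r across genes was 0.632 to 0.671 over 10 pairs of E36 cells and 0.641 to 0.760 over 45 pairs of E16 cells, against 0.583 to 0.675 over the 50 pairs between stages. These values share depth and genes and are given as description.

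**Figure D2:**
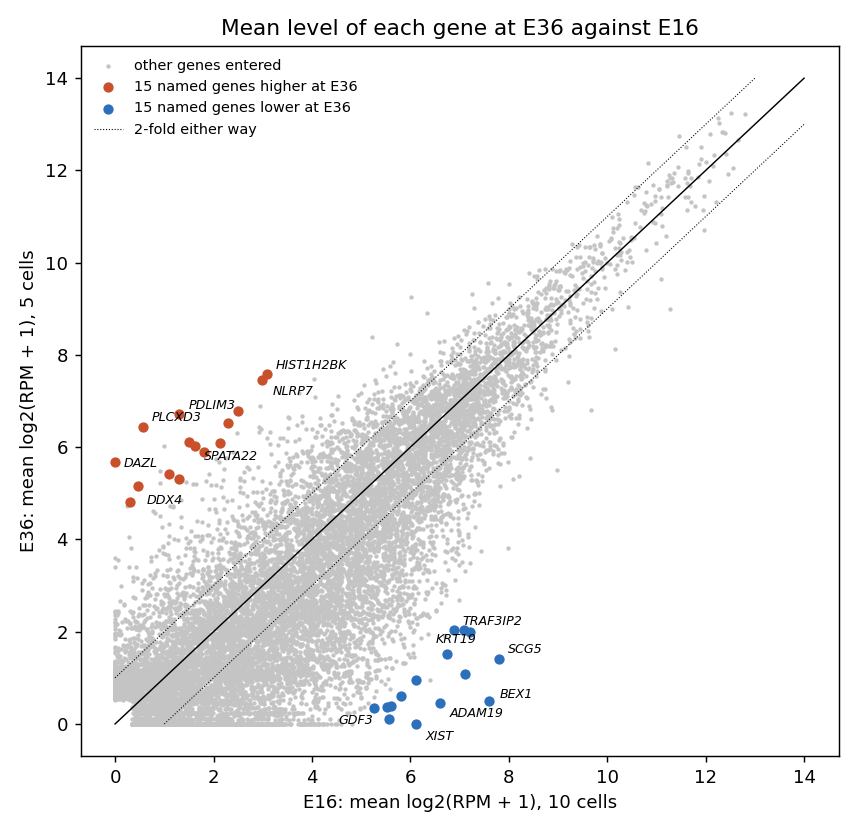
Mean log2(RPM + 1) of each of the 13828 genes at E16 (10 cells, horizontal) and at E36 (5 cells, vertical). The solid line marks equal levels, the dotted lines a 2-fold difference, red the 15 named genes higher at E36 and blue the 15 named genes lower. More genes lie below the lines (4448) than above them (1228).

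The named genes are the 15 highest and 15 lowest differences among genes with a human symbol whose mean reached 50 RPM in the higher stage and that reached 15 RPM in 80% of its cells. By this choice they differ, so their differences describe them and support nothing. The higher genes after DAZL and DDX4 were of mixed function. PLCXD3, a phospholipase C-like protein, was read at 248, 12.3, 180, 176 and 45.7 RPM at E36 and had a median of 0 at E16, with 21.1 RPM in E16 cell 4 (difference 5.88). PDLIM3, which binds the actin cytoskeleton, was at 172, 132, 49.4, 68.9 and 158 RPM, above all E16 cells, whose highest value was 33.7 RPM (5.41). SPATA22, needed for recombination in meiosis, had the most even level of these genes at E36, 64.8 ± 6.84 RPM (SD, n = 5), and reached 64.9 RPM in a single E16 cell, cell 3 (4.40).

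DRAM1, a lysosomal target of p53, was read at 32.5, 165, 40.6, 174 and 38.3 RPM at E36 and at 0 to 40.6 RPM at E16 (4.62). NLRP7, an NLR family protein known from oocytes and early embryos, was at 124, 437, 33.3, 465 and 189 RPM, while its E16 cells ranged from 0 to 313 RPM (4.47). ADCYAP1, the neuropeptide PACAP, was at 11.2 to 87.6 RPM at E36 and reached 15 RPM in 2 of 10 E16 cells (4.34). The remaining higher genes differed by 3.97 to 4.50: HIST1H2BK, KDM4DL, NSMAF, TSPAN5, CPSF2, PRTG and USP31. HIST1H2BK and KDM4DL belong to gene families with near-identical copies, so their reads are uncertain. CPSF2, a factor of messenger RNA 3' end processing, turned to -0.89 against the E17 cells with code MS11.

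The lowest difference was that of BEX1 (chromosome X), a small adaptor-like protein of the brain expressed X-linked family. It was read at 0.401, 0, 0, 0.770 and 1.24 RPM in the E36 cells and at 22.5, 202 and 538 RPM as the lowest, median and highest E16 levels (difference -7.10). SCG5, a chaperone of the secretory pathway, was at 0 to 19.8 RPM against 102 to 372 RPM (-6.39), and ADAM19, a membrane metalloprotease, at 0 to 1.24 RPM against 36.4 to 217 RPM (-6.15). In these 3 genes the stages did not overlap. KRT19, a keratin of simple epithelia, was at 0, 7.39, 15.2, 0.385 and 0 RPM against a median of 156 RPM at E16, where cell 11 had 9.34 RPM (-5.23).

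GDF3, a TGF-beta family ligand of pluripotent cells, had 1 read in all E36 cells together, in cell 3, against 3456 reads at E16. Its E16 levels spread widely, from 0 in cell 10 over a median of 48.9 to 602 RPM in cell 6 (difference -5.45). ESPL1, the separase that releases sister chromatids, and GTSE1, a protein of the G2 and S phases, differed by -5.20 each. GTSE1 was also low in both E17 cells with code MS11, against which the difference was -0.29. MYLIP, a ubiquitin ligase for the LDL receptor, differed by -5.16 from E16 and by 0.36 from the E17 cells, which had 0 reads of it. GSTA4, SLC35A2, RNF146, YLPM1, RAB34 and TRAF3IP2 differed by -6.03 to -4.85.

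**Figure D3:**
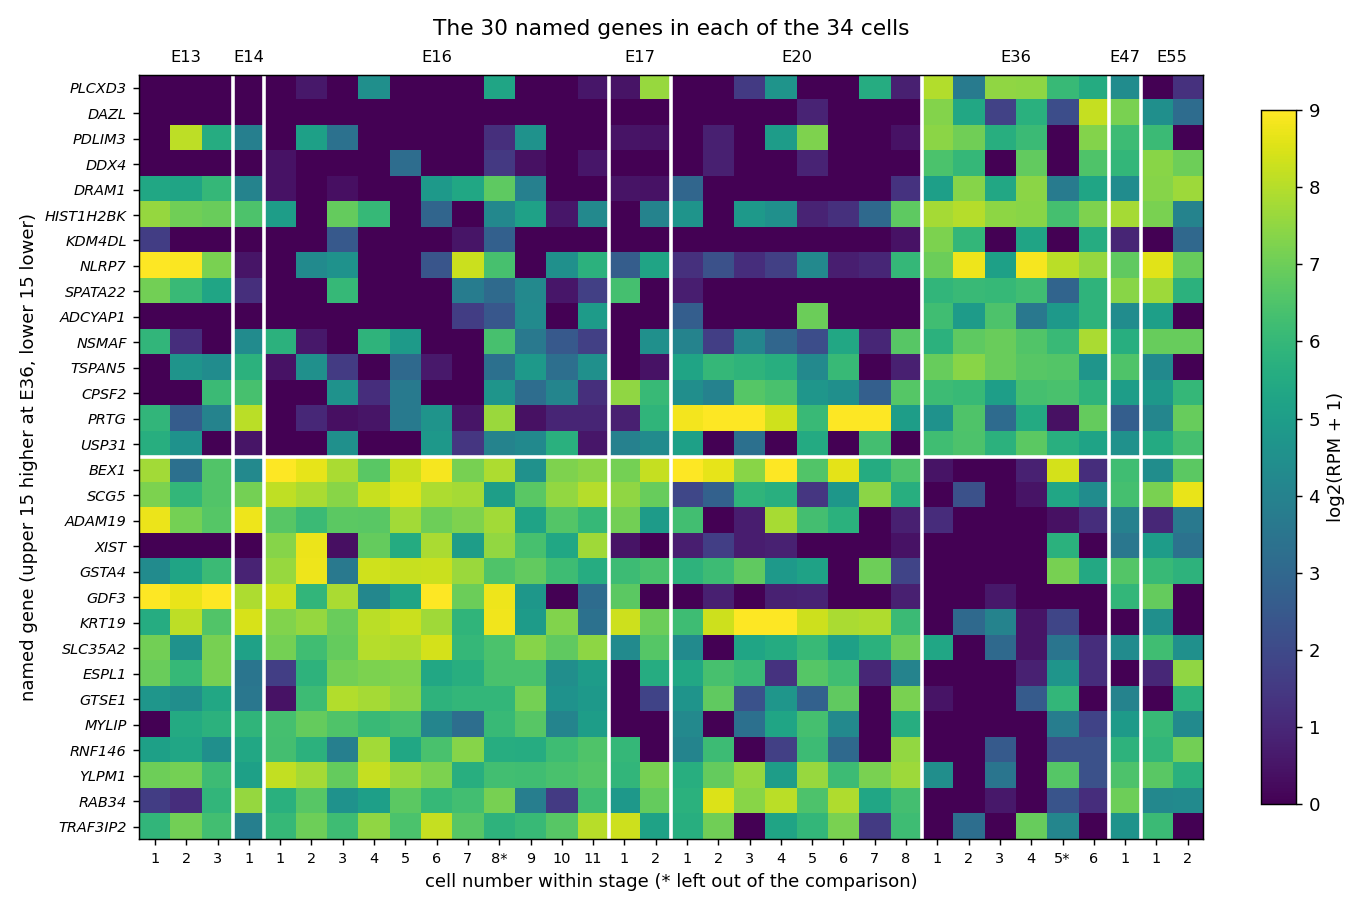
Level of the 30 named genes (rows) in each of the 34 cells (columns, by stage), as log2(RPM + 1), with colours saturated at 9. An asterisk marks E16 cell 8 and E36 cell 5, which were not compared. DAZL and DDX4 are also read at E47 and E55, while BEX1, SCG5 and GSTA4, which are near 0 in most kept E36 cells, are read in E36 cell 5 and at E47 and E55.

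Cells outside the comparison show which of these levels recur. Of the 15 higher genes, 15, 14, 11, 14 and 15 reached 15 RPM in E36 cells 1, 2, 3, 4 and 6, and 1 to 6 did in an E16 cell. In the left-out E36 cell 5 the count was 8, in the E47 cell 13, in the E55 cells 13 and 9, and in the E17 cells 2 and 7. Other early cells held some of them too: 7, 7 and 8 at E13, 6 at E14, 2 to 7 at E20, and 8 in the left-out E16 cell 8. In the E13 cells NLRP7 was at 544, 491 and 146 RPM and SPATA22 at 136, 68.3 and 38.4 RPM, while DAZL and DDX4 had 0 reads. Of the 15 lower genes, 0 to 2 reached 15 RPM in a kept E36 cell, but 8 did in E36 cell 5, 11 at E47, and 12 and 10 at E55. The later gonadal cells thus held most of the higher genes and also most of the lower ones.

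The same could be put as a comparison that shares no cell with E36 or E16, chosen after the values were seen: the 3 cells of E47 and E55 against the 6 of E13, E14 and E17. There, 33.2% of 14535 genes were at least 2-fold higher in the later cells and 11.3% lower. Of the 15 named higher genes, 11 were higher and 0 lower on the log2 scale. Among these 11, NLRP7 had nearly equal mean RPM in the later and earlier cells (205 and 204). PDLIM3 had a lower mean RPM in the later cells (46.8 and 56.1). KDM4DL was low in both (2.72 and 0.353 RPM), and the others were higher in mean RPM too. DDX4 differed by 6.79 and DAZL by 4.95, NSMAF by 3.82, ADCYAP1 by 3.16 and DRAM1 by 2.88. By contrast, PRTG differed by 0.02, PLCXD3 by 0.55, CPSF2 by 0.91 and HIST1H2BK by 0.98. PLCXD3, the first of the 15 named higher genes, had a mean of 7.13 RPM in the later and 32.7 RPM in the earlier cells. The earlier mean includes 196 RPM in E17 cell 2. Of the 15 named lower genes, 5 were lower and 4 higher: KRT19 differed by -5.84, ADAM19 by -4.34 and GDF3 by -2.79, while SCG5 differed by 0.52 and BEX1 by -0.41. The 125 genes in which all E36 cells lay above all E16 cells were higher there in 13 cases (10.4%), below the share of all genes, and the 101 in which they lay below were lower in 18 cases (17.8%) and higher in 23.

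Of 15 measured genes of germ cell specification, 4 were at least 2-fold higher and 4 lower, beside 8.88% and 32.2% of all genes. The median difference was -0.38 against -0.51 for all genes, and -0.25 without E36 cell 3. The lower genes were TFAP2C, PRDM1, PRDM14 and T. TFAP2C, a partner of SOX17, was read at 15.7, 259, 126, 89.7 and 361 RPM at E36 and at 266 to 869 RPM at E16 (median 453), a difference of -2.06, which was -1.37 without E36 cell 1. PRDM1, the repressor of somatic genes, was at 6.02, 175, 34.7, 117 and 24.7 RPM against a median of 166 RPM (-1.82, and -1.18 without E36 cell 1). PRDM14, another early regulator, had 46.8 and 46.0 RPM in E36 cells 2 and 3 and 0 reads in cells 1, 4 and 6, against a median of 69.0 RPM at E16 (-3.55). T, the mesodermal factor brachyury, had a difference of -1.27, which was -0.90 without E36 cell 3 and -0.85 as a difference of medians over cells.

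The higher genes of this list were NANOS3, DPPA3, TFAP2A and KLF4. NANOS3, an RNA-binding repressor that keeps migrating germ cells alive, was read at 158, 198, 74.4, 67.4 and 24.7 RPM at E36 and at 2.54 to 30.1 RPM at E16, with a median of 16.4. E36 cell 6 lay within the E16 range and the other 4 cells above it (difference 2.52; ratio of mean RPM 6.14). DPPA3, which acts on DNA methylation in germ cells and zygotes, was at 152, 69.0, 25.0, 55.4 and 209 RPM. Its E16 cells fell into 5 that reached 15 RPM, up to 93.4 RPM, and 5 that did not (difference 3.18). TFAP2A, a factor of amnion and early germ cells, was at 0, 33.3, 1.96, 19.6 and 38.3 RPM against 0 to 38.3 RPM, with a difference of 1.74 that fell to 0.75 with a pseudocount of 10. KLF4, a pluripotency factor, had a difference of 1.08, which was 0.51 without E16 cell 6, 0.76 with a pseudocount of 10, 0.70 over medians, 0.68 as a log2 ratio of mean RPM and 0.13 against the E17 cells. DND1, an RNA-binding protein that keeps germ cells alive, was at 61.2 to 154 RPM against 52.9 to 138 RPM (0.15). The receptor KIT (-0.64) and the surface protein PDPN (0.34) were within 2-fold.

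In the pluripotency core, 3 of 15 measured genes were at least 2-fold higher and 4 lower, beside 8.88% and 32.2% of all genes. The median difference of -0.38 became -0.60 when E36 cell 1 was left out and -0.076 when cell 2 was. NANOG, a second core factor, was read at 1323, 1278, 909, 1157 and 1121 RPM at E36 and at a median of 1104 and a highest level of 2193 RPM at E16. All 5 E36 cells lay within the E16 range, with a difference of -0.04. LIN28A, a repressor of the let-7 microRNAs, differed by -0.49. TDGF1, a co-receptor for NODAL, was at 72.2, 6.16, 129, 1.54 and 18.5 RPM against a median of 126 RPM (-2.39, but -0.04 against the E17 cells with code MS11). SALL4 differed by -1.22, and by -0.86 without E36 cell 3, by -0.70 as a log2 ratio of mean RPM and by -0.52 against the E17 cells. The higher members rested on few cells. LIN28B, the relative of LIN28A, was read at 0, 0, 67.5, 6.16 and 158 RPM (1.18, and 0.16 without E36 cell 6, 0.46 without cell 3, 1.99 without cell 1 or 2, 0.95 without E16 cell 2, 1.0 with a pseudocount of 10, and 0.14 against the E17 cells). DPPA2, a chromatin protein of pluripotent cells, was at 6.82, 4.93, 0, 74.3 and 13.6 RPM (1.23, and 0.45 without E36 cell 4, 2.01 without cell 3, 0.55 with a pseudocount of 10 and 0.99 with the left-out cells). The third was KLF4.

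The later germ line list includes the piRNA pathway, which silences transposons with small RNAs. Of 27 listed genes, 20 were measured, 7 were at least 2-fold higher and 7 lower, beside 8.88% and 32.2% of all genes. The median difference was -0.54, against -0.51 for all genes, and ran from -0.71 without E16 cell 4 to -0.28 without E16 cell 7. Restricted to members whose mean reached 10 RPM, the median was 0.87. Besides DAZL and DDX4, GTSF1, a cofactor of PIWI proteins, was read at 3.21, 53, 141, 165 and 63.0 RPM at E36 and at a median of 0 RPM at E16, where 3 of 10 cells reached 15 RPM (3.56). MAEL, a protein of germ cell granules, was at 0, 53, 84.2, 87.8 and 49.4 RPM against a median of 2.58 RPM (2.49). TDRKH, a Tudor protein that holds PIWI proteins at mitochondria, differed by 1.27, by 2.36 without E36 cell 3, by 0.76 without cell 4 and by 0.94 with reads thinned to equal depth. TDRD6, a Tudor protein of germ cell granules, was read only in E36 cells 3 and 4, at 54.3 and 61.6 RPM (2.35, but 0.38 against the E17 cells and 0 over medians, and 1.49 without cell 3 and 1.45 without cell 4). RNF17, another Tudor protein, was read only in cells 2 and 4, at 30.8 and 62.0 RPM (2.19, but 0.98 with a pseudocount of 10 and 0 over medians, and 1.25 without cell 4). Both had 0 reads in every E16 cell. The cells did not carry these genes together: cell 3 had GTSF1 and MAEL with 2.45 RPM of DAZL and no DDX4, and cell 1 had DAZL and DDX4 with 3.21 RPM of GTSF1 and no MAEL. PIWIL4, TDRD1, TDRD5, TDRD7 and MOV10L1 had 0 reads in all 5 E36 cells.

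Of 25 meiosis genes listed, 13 reached a mean of 1 RPM in a stage, 1 was at least 2-fold higher (SPATA22) and 4 were lower, near the 8.88% and 32.2% of all genes (median difference -0.61, and -0.40 without E36 cell 3). REC8, a meiotic cohesin, had 0 reads at E36 and a median of 19.3 RPM at E16 (-3.97). TRIP13, an ATPase of the spindle checkpoint and of meiotic recombination, was at 42.5, 1.23, 0, 48.5 and 1.24 RPM against 59.2 to 291 RPM, without overlap (-4.31).

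Of 12 genes of the DNA methylation machinery, 4 were at least 2-fold higher and 3 lower, beside 8.88% and 32.2% of all genes. The median difference was -0.23, and ran from -0.36 without E36 cell 1 to -0.064 without E16 cell 9. DNMT1, which copies methylation at replication, was read at 0.401, 8.62, 52.4, 29.6 and 2.47 RPM at E36 and at a median of 80.6 RPM at E16 (-2.42). DNMT3B, a de novo methyltransferase, was at 0.979 to 6.18 RPM in all E36 cells against a median of 29.6 RPM (-2.07). UHRF2 was lower by a difference of -1.10, which turned to 0.30 against the E17 cells. TET1, which oxidises methylated cytosine, was higher at 102, 45.6, 166, 144 and 240 RPM against a median of 66.8 RPM (1.71, and 0.54 against the E17 cells). MBD4, a DNA glycosylase, differed by 1.83, and by 0.67 over medians. TET3, a second oxidase, rested on the 50 RPM of E36 cell 4 (1.21, and 0.13 without it, 0.53 with a pseudocount of 10, 0 over medians and 0.98 after thinning). DNMT3L, a cofactor of de novo methylation, was at 68.6, 34.5, 165, 158 and 0 RPM (1.70, and 3.0 without E36 cell 6).

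Among 17 genes of histone and arginine methylation, 2 were at least 2-fold higher and 4 lower, beside 8.88% and 32.2% of all genes, and 5 were higher without E36 cell 3. The median difference of -0.11 changed sign with the cells used, from -0.47 without E36 cell 2 to 0.23 without E16 cell 5. The higher ones were SUZ12, a Polycomb subunit (1.18, and 0.93 against the E17 cells), and WDR77, the partner of PRMT5 (1.4, and 0.97 without E16 cell 4). EZH2, the catalytic Polycomb subunit, was at 37.7, 78.8, 127, 0.385 and 71.7 RPM against a median of 118 RPM. Its difference of -1.34 was -0.20 without E36 cell 4, -0.81 with a pseudocount of 10, -0.71 over medians, -0.77 as a log2 ratio of mean RPM and 1.05 against the E17 cells.

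Oocyte-type genes and AKT cofactors were higher in 4 of 7 measured members and lower in 0, beside 8.88% and 32.2% of all genes. The median difference was 2.26, which was 0.89 with a pseudocount of 10 and 1.37 with the left-out cells. The mean log2(RPM + 1) of the list was 4.87 to 5.35 in the kept E36 cells and 2.30 to 5.19 in the kept E16 cells. The E13 cells had 5.51, 4.54 and 4.38, so levels near those of E36 were not limited to gonadal cells. The E14, E17 and E20 cells lay below every kept E36 cell. Of 19 listed genes, 17 were in the table, and 10 of these had 0 reads in the kept cells of both stages. The median and the counts therefore describe the 7 measured members and not the list as a whole. TCL1B, a cofactor that activates the AKT kinase, was read at 397, 509, 184, 277 and 392 RPM at E36 and at 0 to 610 RPM at E16, with a median of 41.7 (3.16). Its relative TCL1A was at 11.2, 62.8, 176, 32.3 and 56.9 RPM against a median of 8.01 RPM (2.36). OOEP, a protein of the subcortical complex of oocytes, differed by 2.26, by 0.89 with a pseudocount of 10 and by 0.36 as a log2 ratio of mean RPM, with 186 RPM in E16 cell 3. The fourth was NLRP7, which was also read at 544, 491 and 146 RPM in the E13 cells. In all 4 genes the stages overlapped.

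**Figure D4:**
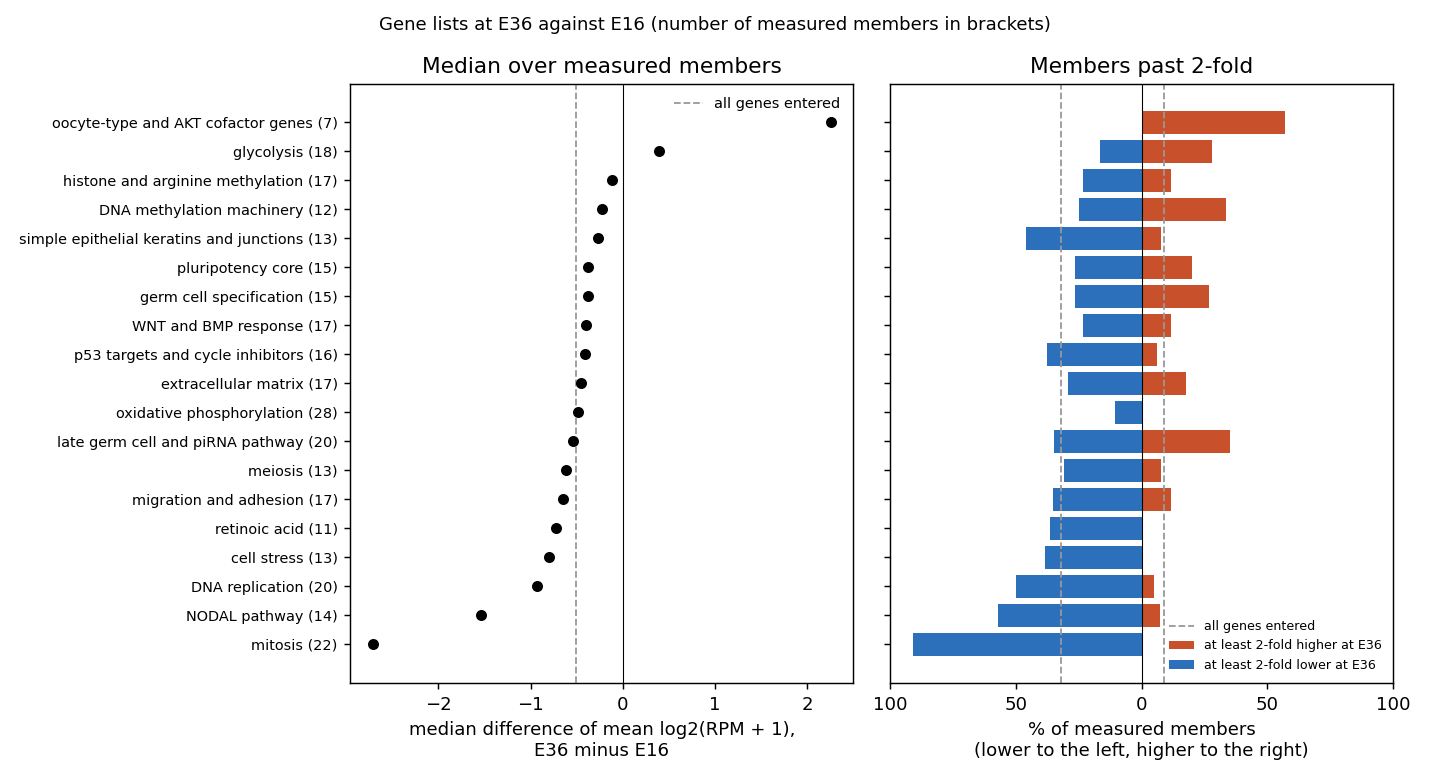
Median difference (left) and share of measured members past 2-fold (right) for 19 gene lists, with the number of measured members in brackets. Dashed lines give the values for all 13828 genes entered. Mitosis has the lowest median (-2.71) and oocyte-type and AKT cofactor genes the highest (2.26).

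Mitosis genes stood lowest of all lists. Of 22 genes, all measured, 20 were at least 2-fold lower at E36 and 0 higher, with a median difference of -2.71, beside 32.2% of all genes. Between 7 and 11 of the 22 genes reached 15 RPM in an E36 cell and between 12 and 22 in an E16 cell, so the stages did not overlap in this count. MKI67, the proliferation antigen Ki-67, was read at 8.83, 1.23, 0, 0 and 0 RPM at E36, while the E16 cells spread from 0 to 387 RPM (median 100; difference -4.25). BUB1B, a kinase of the spindle checkpoint, was at 0, 0, 0, 1.15 and 1.24 RPM against a median of 45.0 RPM (-4.68). CCNB1, the cyclin of entry into mitosis, was at 2.01, 4.93, 78.8, 1.54 and 72.9 RPM, so cells 3 and 6 held it above the E16 median of 68.7 RPM (-3.24).

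The spread of the E16 cells was wide. Their mean log2(RPM + 1) over the 22 genes ran from 3.28 in cell 1 to 8.33 in cell 4, against 2.54 to 3.38 in the E36 cells, so that E16 cell 1 lay within the E36 range. The left-out E36 cell 5 had 6.78 and all 22 genes at 15 RPM or more. At later stages the mean was 4.27 at E47 and 3.93 and 6.36 at E55, above the 5 E36 cells. The E17 cells with code MS11 were 1.60 and 5.83, and the median difference from them was -0.82. TOP2A, the topoisomerase that untangles replicated DNA, was -1.65 against E16, -1.07 without E36 cell 3, and 2.08 against the E17 cells. NUSAP1, a spindle protein, was -1.95 against E16 and -0.15 against the E17 cells.

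DNA replication genes were lower in 10 of 20 members and higher in 1, with a median difference of -0.93, beside 32.2% and 8.88% of all genes. CDC45, a part of the replicative helicase, had 1 read in all E36 cells, in cell 4, against a median of 36.8 RPM at E16 (-4.45). POLA1, the catalytic subunit of DNA polymerase alpha, was at 28.9, 13.5, 49.4, 0 and 1.24 RPM against 43.1 to 283 RPM (-3.79). The higher member was CCNE2, a cyclin of S phase entry, at 89.5, 1.23, 0.979, 14.2 and 37.1 RPM (1.87, and 1.14 without E36 cell 1 and 1.0 with a pseudocount of 10). MCM4, another helicase subunit, differed by 0.72. Of 16 measured p53 targets and cycle inhibitors, 1 was at least 2-fold higher, the named gene DRAM1, and 6 were lower, beside 8.88% and 32.2% of all genes (median difference -0.41). Leaving out 1 cell gave 4 to 8 lower genes and a median of -0.73 when E36 cell 2 was left out and -0.026 when cell 3 was. Outside the lists, the cyclin CCND2, chosen after its values were seen, was at 478, 421, 453, 542 and 530 RPM at E36 and at 0 to 326 RPM at E16, without overlap (2.58; 2.05 against the E17 cells).

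**Figure D5:**
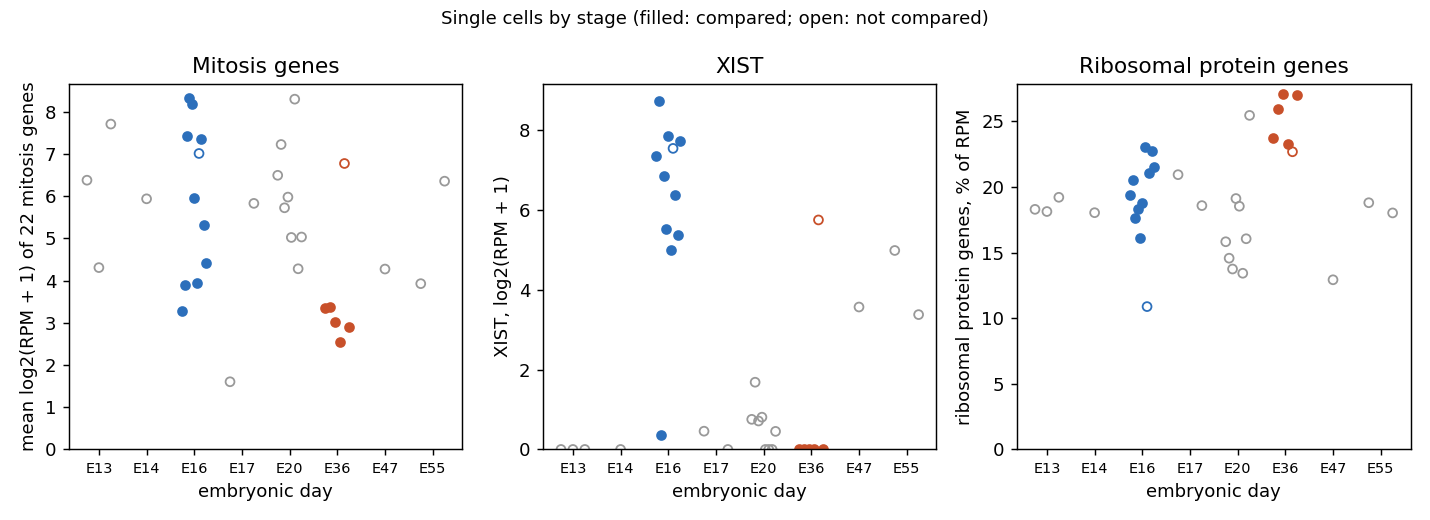
Mean log2(RPM + 1) of the 22 mitosis genes, log2(RPM + 1) of XIST, and the share of RPM in ribosomal protein genes, in each of the 34 cells by stage. Filled points are the 10 E16 and 5 E36 cells compared and open points all others. The kept E36 cells are low for mitosis genes, at 0 for XIST, and above every kept E16 cell in their ribosomal share.

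The X-linked noncoding RNA XIST, which coats the inactive X chromosome of females, had 0 reads in the 5 kept E36 cells. At E16 it was read at 30.8 to 425 RPM in 9 of 10 cells and at 0.281 RPM in cell 3. Summed over cells, the E16 level was 121 RPM (exact Poisson 95% interval 117 to 125), at least 353-fold above the limit of 3 summed reads at E36. The E36 gonads are labelled male, but the left-out E36 cell 5 held 53 RPM of XIST. The later cells, also labelled male, held 10.9 RPM at E47 and 30.7 and 9.42 RPM at E55, and the E13 and E14 cells had 0 reads. Between these E47 and E55 cells and the E13, E14 and E17 cells, XIST differed by 3.90 on the log2 scale. The sex of the E16 embryos is not given, so stage and sex cannot be told apart here. The E17 cells held 0.373 and 0 RPM, and the difference from them was -0.23.

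Genes of the X chromosome were also lower at E36 more often than others. Of 564 X genes entered, 38.7% were at least 2-fold lower, against 31.9% of 13264 autosomal genes, and the median differences were -0.74 and -0.50. Where the mean reached 50 RPM in a stage the gap was wider, 44.4% of 180 X genes against 26.9% of 4150 autosomal genes, with medians of -0.75 and -0.21. Every E36 cell lay above every E16 cell in 4 of the 564 X genes and 121 of the 13264 autosomal genes (0.904% of all genes). Every E36 cell lay below in 12 X genes and 89 autosomal genes (0.73% of all genes). These 12 X genes included TMSB4X, an actin-binding peptide, at 8.43 to 65.1 RPM against 102 to 287 RPM (-2.47), and RPL10, a ribosomal protein (-0.89). NDUFA1, a subunit of respiratory complex I, was also among them, at 193, 350, 192, 68.9 and 151 RPM against 397 to 879 RPM (-1.80). NDUFA1 differed by 0.03 from the E17 cells.

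Of 17 measured genes of migration and adhesion, 2 were at least 2-fold higher and 6 lower, near the 8.88% and 32.2% of all genes, with a median difference of -0.65. ITGA6, the alpha-6 integrin that binds laminin, was read at 601, 342, 400, 546 and 362 RPM at E36 and at 80.7 to 343 RPM at E16, with only cell 2 within the E16 range (1.27). NCAM1, a neural and germ cell adhesion molecule, was at 116, 56.7, 132, 90.5 and 120 RPM against a median of 25.1 RPM (2.48, but 0.18 against the E17 cells). EFNA1, an ephrin ligand, was at 0 to 36.2 RPM against a median of 48.9 RPM (-3.94).

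Of 17 measured extracellular matrix genes, 3 were at least 2-fold higher and 5 lower, beside 8.88% and 32.2% of all genes, with a median difference of -0.45 (-0.70 without E36 cell 1 and -0.14 without cell 3). The counts were 5 higher without E36 cell 3 and 8 lower without E36 cell 6. The 3 higher genes encode basement membrane chains. COL4A1 was read at 169, 320, 99.8, 367 and 231 RPM against 11 to 139 RPM (2.17), COL4A2 at 166, 218, 115, 169 and 81.6 RPM against 11.1 to 68.2 RPM without overlap (1.89, and 0.86 against the E17 cells), and LAMC1 at 146, 207, 156, 136 and 171 RPM against 3.38 to 159 RPM (2.29). The basement membrane linker NID2 was lower (-3.43). FN1, fibronectin, was at 0.803, 17.2, 3.43, 4.23 and 11.1 RPM against a median of 27.4 RPM (-2.20, and 0.06 against the E17 cells). FERMT2, an activator of integrins chosen after its values were seen, was at 201 to 345 RPM against 27.1 to 136 RPM without overlap (2.02, but -0.18 against the E17 cells).

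Simple epithelial genes were lower in 6 of 13 measured members and higher in 1 (3 higher without E36 cell 1), beside 32.2% and 8.88% of all genes. Their median difference of -0.27 lay above the -0.51 of all genes, but came to -0.97 without E36 cell 2. Beside KRT19, KRT18, a keratin of the same epithelia, differed by -1.55 (-0.98 with a pseudocount of 10) and the tight junction protein CLDN6 by -3.61, at 0, 39.4, 5.38, 0 and 4.94 RPM against 27.3 to 97.8 RPM. The higher gene was JUP, plakoglobin, at 364, 390, 222, 387 and 373 RPM against 73.3 to 189 RPM, without overlap (1.45).

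Of the 3 signalling lists, NODAL and retinoic acid had medians below that of all genes. Of 14 measured NODAL pathway genes, 8 were at least 2-fold lower and 1 higher, with a median difference of -1.53, which was -0.98 without E36 cell 1 and -0.55 with a pseudocount of 10. The ligand NODAL was read at 0.401, 0, 0, 1.15 and 105 RPM against a median of 1.87 RPM (-1.60, but -0.69 with a pseudocount of 10, -0.84 as a log2 ratio of mean RPM and -0.83 against the E17 cells, and -2.87 without E36 cell 6). LEFTY2, an inhibitor of NODAL and the higher member, was at 67.0, 1.23, 0.489, 29.6 and 124 RPM (1.68, and 0.93 without E36 cell 6, 2.52 without cell 3, 0.75 with a pseudocount of 10, 0.67 as a log2 ratio of mean RPM and 0.99 with the left-out cells). FOXH1, the transcription factor that partners with SMADs below NODAL, was at 6.42, 69.0, 127, 5.77 and 7.42 RPM against 67.2 to 138 RPM (-2.25), and SMAD4, the common mediator, was read at 15 RPM or more only in E36 cell 6 (-3.13). GDF3 and TDGF1 belong to this list as well. WNT and BMP response genes were lower in 4 and higher in 2 of 17 (median -0.39, and -0.83 without E36 cell 6). Retinoic acid genes were lower in 4 and higher in 0 of 11 (median -0.72). Of all genes, 32.2% were lower and 8.88% higher.

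Glycolysis genes were higher in 5 and lower in 3 of 18, beside 8.88% and 32.2% of all genes, with a median difference of 0.40, and 2 were higher without E36 cell 1. HK2, a hexokinase, was at 81.1, 0, 36.2, 35.0 and 0 RPM against 0 to 12.7 RPM (2.22, and 1.47 without E36 cell 1). GAPDH differed by -0.01, while TPI1, triosephosphate isomerase, was at 8.03, 45.6, 0, 0.770 and 0 RPM against 36.1 to 286 RPM (-4.79), and PFKM, the muscle type phosphofructokinase, differed by -4.12 from E16 and by -0.74 from the E17 cells. Oxidative phosphorylation genes were lower in 3 and higher in 0 of 28 (median -0.49, and -0.18 without E36 cell 1). Of 13 measured cell stress genes, 5 were lower and 0 higher, beside 32.2% and 8.88% of all genes. Their median of -0.80 came to -0.51, that of all genes, without E36 cell 3. JUNB, an immediate early gene, had 0 reads at E36 and a median of 3.47 RPM at E16 (-2.13, but -0.67 with a pseudocount of 10 and -0.23 against the E17 cells), and TXNIP, which binds thioredoxin, differed by -2.57.

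Ribosomal protein genes took a larger share of the reads at E36. The list was added after the values were seen. They made up 23.7, 25.9, 27.1, 23.3 and 27.0% of RPM in the E36 cells and 16.1 to 23.0% in the E16 cells, without overlap. Of 78 measured genes, 62 were higher at E36 by any amount, for which no share of all genes was taken. At least 2-fold, 6 were higher and 1 lower (RPL22L1), beside 8.88% and 32.2% of all genes. The list also took in the related genes RPL22L1, RPL7L1, RPS27L, RPL39L and RPL26L1, and RPL26L1 is 1 of the 6. The median difference was 0.34 against -0.51 for all genes. RPL11, a protein of the large subunit, was read at 5827, 7099, 6467, 7375 and 7748 RPM against 2307 to 3550 RPM (1.29, and 0.81 against the E17 cells). The share was 22.7% in the left-out E36 cell 5, 20.9% and 18.6% in the E17 cells, 12.9% at E47, and 18.8% and 18.0% at E55. E20 cell 8, an early cell, had 25.4%, above E36 cells 1 and 4.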

How the data were processed

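The authors deposited 1 table of log2(RPM + 1) values for 28551 genes in 34 single cells. Its name gives RPM, and the log2 scale was read from the values: back-transformed columns summed to 992085 to 995711, and 99.7% to 100% of low values in a cell were whole multiples of 1 read within a tolerance of 0.1. Reads per cell were recovered from that step. Of tools, cutadapt 1.3, TopHat 1.4.1 and Cufflinks 2.2.0 are named without a role in the submitters' processing notes. The genome build and its annotation were not given in the sources used here, so chromosomes are those of the table, with no coordinates. Genes carry the human symbol paired with them (17683 genes). Of 465 list entries, 440 matched by symbol, 11 by RefSeq gene ID and 14 did not.

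Means of log2(RPM + 1) over cells were subtracted, E36 minus E16, for genes whose mean reached 1 RPM in a stage. Cells are no replicates of a stage, so no test was run. Python 3.11.15, numpy 2.4.6, pandas 2.3.3, scipy 1.17.1 and matplotlib 3.10.9 were used. The calculation was tested on simulated data. Summed reads carry exact Poisson 95% intervals, and amplified reads without molecular identifiers make these cover counting error only. The cells, the 19 gene lists and the 6 marker lists were chosen with earlier results of these data known. Named genes followed the rule in the text. From each list, members with the largest differences or highest levels were named, and any member of the germ cell, pluripotency and DNA methylation lists. The alternatives were a pseudocount of 10, no filter, a filter of 10 RPM, the median over cells, the ratio of mean RPM, size factors, all 17 cells of both stages, reads thinned to 809116 per cell, the E17 cells in place of E16, and leaving out each cell in turn. No sequence is printed, since the files used here hold none.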

Additional observations from a re-analysis of the deposited data

Results flagged for a closer look

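A cell was singled out where its gap to the nearest other cell of its stage, divided by the range of the stage on the log2(RPM + 1) scale, passed Dixon's 95% critical value. Of 266 groups of cells screened, 33 held such a cell (12.4%). For normal values chance gives about 5%, which does not hold for counts with many zeros: where 1 cell has a read and the others have 0, as for GDF3, CDC45 and MYLIP at E36, the gap always equals the range.

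Among E36 cells, cell 3 had 0 RPM of DDX4 and 0 RPM of KDM4DL, 222 RPM of JUP (the lowest) and 0.489 RPM of GDF3 (the highest). Cell 1 had 0 RPM of MAEL as the lowest cell, and 29.7 RPM of TXNIP and 83.5 RPM of NR2F2 as the highest. Cell 4 was the highest for GTSE1 at 5.00 RPM, for CDC45 at 0.385 RPM, for EFNA1 at 36.2 RPM and for TET3 at 50 RPM, and the lowest for EZH2 at 0.385 RPM. Cell 6 was the lowest for TSPAN5 at 24.7 RPM and the highest for GSTA4 at 42.0 RPM, MYLIP at 2.47 RPM, SMAD4 at 50.7 RPM and NODAL at 105 RPM.

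Among E16 cells, cell 1 was the lowest for ESPL1 at 2.21 RPM, GTSE1 at 0.368 RPM, DNMT1 at 0.368 RPM and TOP2A at 4.42 RPM. Cell 3 was the lowest for XIST at 0.281 RPM and LIN28A at 191 RPM and the highest for KDM4DL at 4.78 RPM. Cell 6 was the lowest for KLF4 at 0.517 RPM, EFNA1 at 2.07 RPM and CCND2 at 0 RPM. PLCXD3 was highest in cell 4 at 21.1 RPM and DDX4 in cell 5 at 8.35 RPM, while WDR77 was lowest in cell 4 at 3.31 RPM and BEX1 in cell 9 at 22.5 RPM. HK2 was highest in cell 9 at 12.7 RPM and CCNE2 in cell 5 at 33.8 RPM.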

How the results depend on the processing

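With a pseudocount of 10, 457 genes were at least 2-fold higher and 1614 lower, and median differences were 0.89 for oocyte-type genes and -0.55 for the NODAL pathway. Where means reached 10 RPM, medians were 0.87 for late germ cell genes, -1.24 for epithelial genes and -1.92 for retinoic acid. Medians over cells gave -0.85 for NODAL and -0.044 for oxidative phosphorylation, and ratios of mean RPM 0.77 for oocyte-type genes and -0.10 for oxidative phosphorylation. With all 17 cells, 49 genes had every E36 cell below every E16 cell, and medians were 1.37 for oocyte-type genes and 0.072 for glycolysis. Against the 2 E17 cells with code MS11, 2816 genes were higher, 522 had every E36 cell above and 883 below. Non-overlap is easier to meet with 2 cells than with the 10 of E16. The counts of 522 and 883 therefore cannot be set beside the 125 and 101 of the main comparison. Medians there were 0.59 for late germ cell genes, 0.65 for histone methylation, -1.0 for p53 targets, -0.82 for mitosis, 0.17 for migration, 0.42 for matrix, -1.48 for WNT and BMP, -0.41 for NODAL and -1.73 for retinoic acid. CPSF2 turned to -0.89, MYLIP to 0.36, UHRF2 to 0.30, TOP2A to 2.08, FN1 to 0.057, NDUFA1 to 0.026, FERMT2 to -0.18 and EZH2 to 1.05. Of 101 genes followed at 2-fold, 15 were no longer 2-fold in the same direction with a pseudocount of 10, 9 over medians, 6 as ratios, 2 with all cells, 2 after thinning, 27 against E17 and 12 when some cell was left out. Size factors changed 0 of them. Other filters on low values decide only which genes enter and cannot change the difference of a gene. Leaving out each cell in turn gave 1183 to 1488 higher and 4380 to 4673 lower genes, 128 to 161 genes with every E36 cell above and 114 to 185 with every E36 cell below, and medians of -0.97 to -0.076 for epithelial genes and -0.50 to -0.18 for oxidative phosphorylation. With a cell left out non-overlap is easier to meet, so the rises of these 2 counts from 125 and 101 follow from the rule. The cause of the other changes was not tested.

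No paired analysis was possible because the labels give the cells no shared replicate numbers and tie them to no animal. With 5 cells against 10 and 1 sample a stage, a difference between stages cannot be told apart from one between embryos. A single E36 cell with 0 reads may hold up to 3.71 RPM, so low levels are limited by depth.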

Other observations

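The left-out cells held germ cell genes beside the somatic gene that removed them. E36 cell 5 had 356 RPM of SOX17, 193 RPM of TFAP2C and 1054 RPM of PDPN, all within the range of the kept E36 cells, together with 1214 RPM of POU5F1 and 647 RPM of NANOG, below all of them. It also held 330 RPM of LHX9 and 222 RPM of NR2F2. It had 0 reads of DDX4, as E36 cell 3 did, and 111 RPM of MKI67, above every kept E36 cell. E16 cell 8 had 806 RPM of POU5F1, 149 RPM of SOX17 and 222 RPM of NANOG, below every kept E16 cell, and 154 RPM of DPPA3, above every kept E16 cell.

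HMGB1, an abundant chromatin protein chosen after its values were seen, was read at 200, 149, 143, 101 and 97.6 RPM in the E36 cells and at 289 to 708 RPM in the E16 cells. The stages did not overlap (difference -1.69, and -0.67 against the E17 cells). Of the 125 genes in which every E36 cell lay above every E16 cell, 50 had a human symbol, against 86 of the 101 in which every E36 cell lay below. Of all 28551 genes, measured or not, 17683 had one. In 16 of those 101 genes the 5 E36 cells held 0 reads together, while DAZL was the 1 gene of the 125 with 0 reads at E16.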
